A study of Mus musculus with 16 samples.

Results

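Ribosome biogenesis is covered here by 38 genes, chosen by symbol, that encode nucleolar rRNA-processing factors and components of the RNA polymerase I (Pol I) machinery. All 38 symbols were found among the 47069 genes of the count table, and all 38 passed the filter on low counts, which left 13211 genes for testing. They were sorted by role into 6 genes of the Pol I machinery, 3 core proteins of the box C/D snoRNPs, 5 proteins of the box H/ACA snoRNPs and their chaperone, 9 factors of the small ribosomal subunit, 10 factors of the large subunit and 5 abundant nucleolar proteins and regulators.

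Ribosomes are built in the nucleolus, where Pol I transcribes the genes for the large precursor of ribosomal RNA. The precursor is modified by ribonucleoprotein particles that carry small nucleolar RNAs (snoRNAs), cut by processing complexes and assembled with ribosomal proteins into a small and a large subunit. The transcription factor MYC is known to activate many of the genes for these steps, and macrophages induce MYC when they proliferate or are activated.

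Bone marrow-derived macrophages (BMMs) were grown from C57BL/6 mice aged 8 to 10 weeks in medium with L929-conditioned supernatant, primed overnight with IFNγ at 10 ng/mL, and activated for 1 hr with LPS at 100 ng/mL together with IgG-opsonized ovalbumin as immune complexes (LPS/ICs). The control group received the vehicle DMSO at 0.01%, and the treated group received the γ-secretase inhibitor (GSI) DAPT at 25 μM, which blocks the release of the Notch intracellular domain and also acts on other γ-secretase substrates. All cells were therefore primed and activated, and the groups differed in the inhibitor; the methods state overnight GSI before activation, whereas a shorter pretreatment is given in the legends of other experiments. Each group had 2 replicates, and mRNA was sequenced as strand-specific libraries, so ribosomal RNA and its precursor were not measured.

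The 4 columns of each replicate differed by about the sampling noise and were summed to 1 library, giving 42694655 to 56932059 counts per library. Levels are in CPM, the counts of a gene for every 1000000 counts of its library, with library sizes adjusted by TMM, and a gene without counts could have a level of up to 3 counts, or 0.0527 to 0.0703 CPM, from counting error alone. Nothing in the labels says that the replicates were separate cultures, so the p-values measure only the spread between these libraries, which may be technical. All 10 macrophage markers were detected, summing to 12720 and 12940 CPM with DMSO and to 9933 and 10840 CPM with GSI, and 7 of them were lower and 1 higher with GSI. Among 7 marker lists of other cell types, the highest summed level was 10.7 CPM in DMSO replicate 1, for the B cell list, which was at 3.68 and 3.38 CPM in the GSI libraries. The erythroid list had 6 of 7 genes at 0 counts in all libraries, and the mast cell and basophil list 5 of 6. In bulk RNA, fewer cells expressing a gene and less of its RNA per cell cannot be told apart.

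With GSI, 31 of the 38 genes did not pass the test, 6 rose and 1 fell (edgeR quasi-likelihood test, Benjamini-Hochberg adjusted p, FDR, under 0.05). The genes that rose were *Grwd1*, *Noc2l* and *Nop16* of the large subunit, *Wdr75* and *Utp15* of the small subunit and *Nhp2* of the box H/ACA snoRNPs, and the gene that fell was *Rrp1b*, a large-subunit factor. Over all 13211 genes tested, 21.9% were called lower and 19.0% higher, against 1 of 38 and 6 of 38 here. At an unadjusted p under 0.05 in edgeR, 3337 of the 13211 were lower and 3147 higher, against 2 and 8 of the 38. DESeq2 called 0 lower and 3 higher of the 38, and 17.1% lower and 12.4% higher of all genes it tested. Without DMSO replicate 1 the edgeR counts were 1 lower and 3 higher, without DMSO replicate 2 they were 0 and 5, without GSI replicate 1 they were 3 and 5, and without GSI replicate 2 they were 2 and 4. In these 4 fits, 17.25% to 19.91% of all genes tested were lower and 13.41% to 16.62% higher. Among the 8247 tested genes whose mean level lay between that of the weakest and the strongest of the 38, from 5.44 to 326.8 CPM, 24.7% were lower and 22.5% higher. The median log2 fold change of the 38 was 0.07, with quartiles of -0.031 and 0.16, whereas over all genes tested it was 0.015, with quartiles of -0.25 and 0.24. Without DMSO replicate 1 the median of the 38 was 0.037.

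The changes were small. An absolute log2 fold change below 0.2 was found in 31 of the 38 genes and in 42.6% of all genes tested. The 95% intervals ran from -0.62 to 0.56 on the log2 scale, and 37 of the 38 intervals lay wholly within a 1.5-fold change in either direction, the exception being that of *Rrp1b*. An FDR under 0.05 together with an absolute log2 fold change above 1.5 was reached by 0 of the 38 and by 2.91% of all tested genes in edgeR. The count for the 38 was also 0 at an unadjusted p under 0.05 and 0 in DESeq2.

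**Figure D1:**
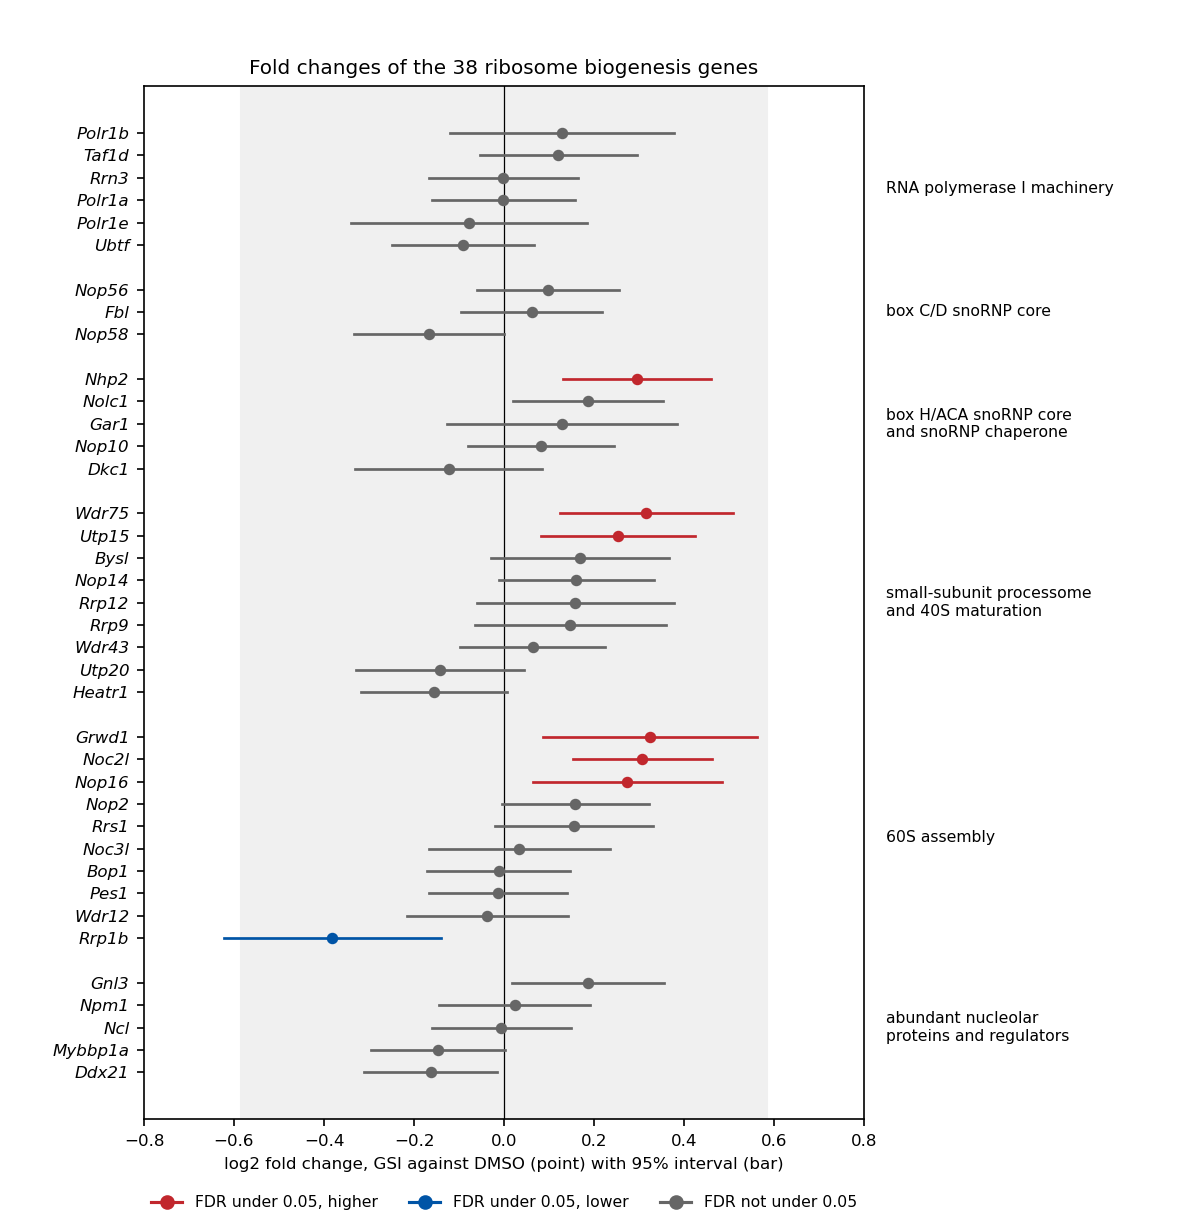
Log2 fold change of GSI against DMSO (points) with its 95% interval (bars) for the 38 genes, grouped by role, with the grey band marking a 1.5-fold change in either direction. Of the 7 coloured genes, 6 lie to the right of 0 and *Rrp1b* at -0.38 lies to the left, and no gene of the Pol I machinery is coloured.

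Compared per kilobase of the annotated transcript (the shortest of those with the best APPRIS grade in GENCODE M21), levels spanned from 1.41 CPM per kb for *Rrp1b* to 173 CPM per kb for *Npm1* in the DMSO group, with a median of 9.11. *Npm1*, a histone-binding chaperone of the nucleolus, was followed at a distance by *Ncl*, nucleolin, at 39.9 CPM per kb, a value that rests on an annotated transcript of 8202 bases with 2121 coding bases. Next came *Noc2l* at 29.9, *Fbl* at 29.5, *Pes1* at 28.4 and *Ubtf* at 28.3 CPM per kb, and these 4 differed by less than the DMSO libraries of *Ubtf* did. The order depends on the transcript chosen. Per kb of all annotated exons of the gene, *Noc2l* was at 29.1, *Pes1* at 27.4, *Ubtf* at 11.9 and *Fbl* at 8.4 CPM. Within the Pol I machinery the rDNA-binding factor *Ubtf* was the highest per kb, and the subunit genes *Polr1e* at 1.87 and *Polr1b* at 1.57 CPM per kb were among the 3 lowest of all 38. The GSI group had a median of 10.2 CPM per kb. The weakest count of any of the 38 genes in a library was 226 and the strongest was 18594, and the SE of the log2 fold change ran from 0.0708 for *Ddx21* to 0.126 for *Polr1e*, with the largest values in the genes with the fewest counts.

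**Figure D2:**
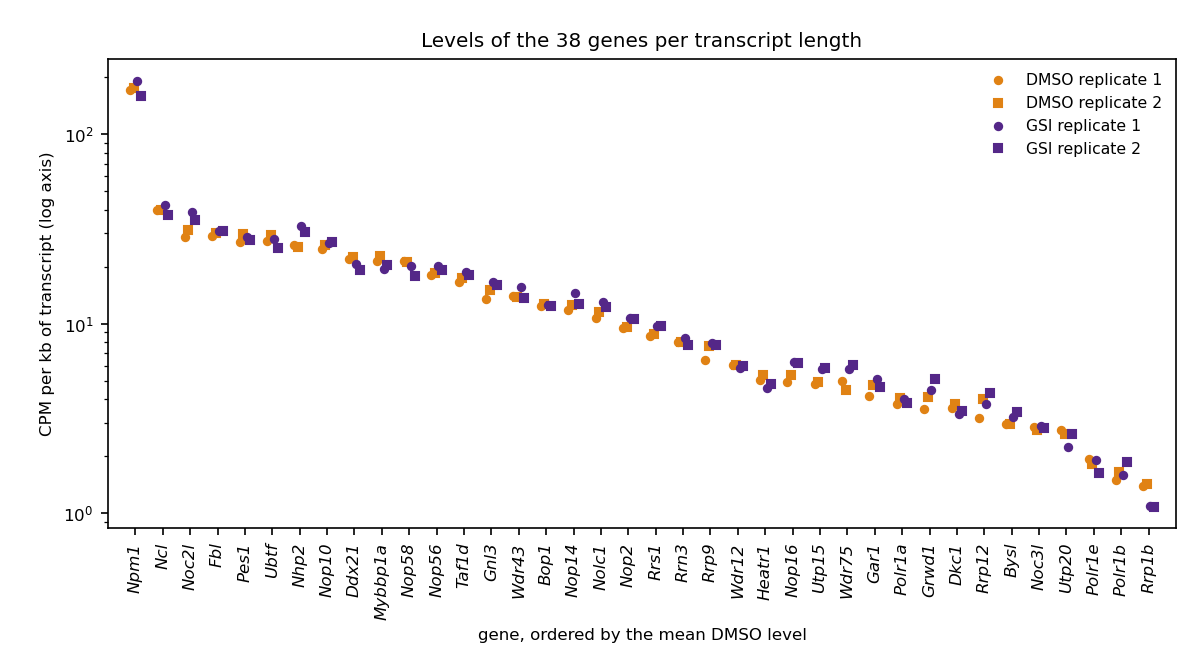
Level of each of the 38 genes in each library, in CPM per kb of transcript on a log axis, with genes ordered by their mean in the DMSO group. *Npm1* at 173 and *Ncl* at 39.9 CPM per kb lead, *Rrp1b* at 1.41 closes the order, and for most genes the 4 symbols nearly coincide on this scale.

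The promoter windows of RefSeq (GRCm38.p6, 250 bases before to 50 after a start) covered 33 of the 38 genes and left out *Fbl*, *Npm1*, *Bop1*, *Rrp12* and *Rrs1*. They were searched for the E-box CACGTG, which MYC and MAX bind and which reads the same on both strands, and for GTGGGAA or its reverse complement TTCCCAC, the core bound by RBPJ, the DNA-binding partner of Notch; the motifs can share the letters GTG, but no window of these genes held both. An E-box was found in 7 of the 33 genes (21.2%), in 8.09% of all 27025 genes with a window and in 11.9% of the tested genes with one. The RBPJ core was found in 1 of the 33 genes (3.03%), *Rrp9*, and in 7.25% of all genes with a window. A match is a description of the letters and not a binding site. The upstream sites, 48 to 215 bases before the start, are shown with their flanks on the plus strand of GRCm38, with the motif in capitals, because *Rrn3* links Pol I to growth signals and *Rrp9* held the sole RBPJ core:

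*Rrn3* E-box, chr16:13780454-13780519: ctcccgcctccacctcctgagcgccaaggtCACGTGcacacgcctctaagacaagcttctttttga
*Rrn3* E-box, chr16:13780621-13780686: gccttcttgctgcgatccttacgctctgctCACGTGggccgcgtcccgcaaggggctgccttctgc
*Nop2* E-box, chr6:125131793-125131858: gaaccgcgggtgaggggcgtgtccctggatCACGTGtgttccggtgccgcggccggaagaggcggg
*Rrp9* RBPJ core, chr9:106477229-106477295: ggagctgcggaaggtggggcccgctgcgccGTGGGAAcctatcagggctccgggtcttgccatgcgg

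The other 5 genes with an E-box, *Grwd1*, *Mybbp1a*, *Pes1*, *Utp20* and *Wdr43*, held it after the start. The 7 genes with an E-box had log2 fold changes from -0.15 to 0.33 with a median of -0.0015, and 1 of them, *Grwd1*, was called, as higher. The 26 genes without one ranged from -0.38 to 0.32 with a median of 0.11, with 5 called higher and 1 lower. The difference between these sets was not tested.

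None of the 6 genes of the Pol I machinery passed the test in either direction, and their median log2 fold change was -0.0016. At an unadjusted p under 0.05 the count was also 0 in edgeR, and DESeq2 called 0. *Polr1a*, the largest catalytic subunit, had 34.9 and 37.1 CPM with DMSO and 36.6 and 35.3 CPM with GSI, and its log2 fold change was -0.0016 with a 95% interval from -0.16 to 0.16. *Polr1b*, the second-largest subunit, had 6.00 and 6.57 CPM with DMSO and 6.37 and 7.41 CPM with GSI (log2 fold change 0.13, SE 0.119, adjusted p = 0.412 in edgeR). For *Polr1e*, a smaller Pol I subunit, the levels were 5.74 and 5.45 CPM with DMSO and 5.71 and 4.88 CPM with GSI, a log2 fold change of -0.077 (SE 0.126). In all 3 subunit genes the groups overlapped. Their values depended on single libraries, from 0.017 without GSI replicate 2 to 0.23 without GSI replicate 1 for *Polr1b*, from -0.19 without GSI replicate 1 to 0.033 without GSI replicate 2 for *Polr1e* and from -0.047 without DMSO replicate 1 to 0.042 without DMSO replicate 2 for *Polr1a*.

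*Rrn3*, the initiation factor that brings Pol I to its promoter and whose E-box windows are given above, had 28.7 and 28.8 CPM with DMSO and 29.9 and 27.5 CPM with GSI. Its log2 fold change was -0.0015, with a 95% interval from -0.17 to 0.16. *Ubtf*, which binds along the rDNA, had 75.1 and 80.9 CPM with DMSO and 77.1 and 69.4 CPM with GSI (log2 fold change -0.091, SE 0.0755, adjusted p = 0.360 in edgeR). In both, the GSI libraries lay on either side of a DMSO library, and the values ran from -0.065 without GSI replicate 1 to 0.06 without GSI replicate 2 for *Rrn3* and from -0.17 to -0.015 in the same fits for *Ubtf*. *Taf1d*, a subunit of the Pol I selectivity factor, had 19.1 and 19.9 CPM with DMSO and 21.5 and 20.9 CPM with GSI. It was the only one of the 6 whose groups did not overlap, with a log2 fold change of 0.12 (SE 0.0834, adjusted p = 0.263 in edgeR).

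Of the 3 core proteins of the box C/D snoRNPs, which guide methylation of ribosomal RNA, 0 passed the test in edgeR, also 0 at an unadjusted p under 0.05, and 0 in DESeq2. *Fbl*, fibrillarin, the methyltransferase, had 34.6 and 36.1 CPM with DMSO and 37.0 and 36.8 CPM with GSI (log2 fold change 0.06, SE 0.0749). Its coding sequence matched 3 other annotated genes at 90% identity or more over at least 200 bases, so its count is uncertain where reads were shared. The scaffold protein gene *Nop56* had 33.9 and 34.9 CPM with DMSO and 37.8 and 35.9 CPM with GSI (log2 fold change 0.10, SE 0.0757). *Nop58*, the partner scaffold, had 36.8 and 36.0 CPM with DMSO and 34.4 and 30.5 CPM with GSI. Both GSI libraries of *Nop58* lay below the DMSO libraries, with a log2 fold change of -0.17 (SE 0.0800) and an adjusted p of 0.103 in edgeR; without GSI replicate 1 it was -0.26 and passed (adjusted p = 0.0285, edgeR), and without GSI replicate 2 it was -0.080 (adjusted p = 0.565, edgeR).

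Among the 5 genes of the box H/ACA group, which guide conversion of uridine to pseudouridine, *Nhp2* alone passed, as higher. *Nhp2* (chr11:51619735-51623714), an RNA-binding core protein shared with telomerase, had 27.2 and 26.4 CPM with DMSO and 34.1 and 31.7 CPM with GSI, a log2 fold change of 0.30 (SE 0.0787, adjusted p = 0.00501 in edgeR), which is an increase of 22.8%. It also passed whichever of the 4 libraries was left out, and in DESeq2. *Nolc1*, a chaperone of snoRNPs, had 26.1 and 28.1 CPM with DMSO and 31.75 and 29.95 CPM with GSI. Its groups did not overlap, and its log2 fold change was 0.19 (SE 0.0799, adjusted p = 0.0682 in edgeR). *Gar1* had 5.25 and 5.99 CPM with DMSO and 6.50 and 5.85 CPM with GSI, with overlapping groups (log2 fold change 0.13, SE 0.123), and ranged from 0.041 without DMSO replicate 1 to 0.23 without DMSO replicate 2. The other two were *Dkc1*, the pseudouridine synthase, at -0.12 and *Nop10* at 0.08 on the log2 fold change scale, neither of which passed.

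The 9 small-subunit factors had a median log2 fold change of 0.16, with 2 called higher and 0 lower; at an unadjusted p under 0.05, 2 were higher and 0 lower in edgeR, and DESeq2 called 1 higher and 0 lower. *Wdr75* (chr1:45795166-45823619), part of the early-binding UTP complex that also acts in Pol I transcription, had 14.8 and 13.2 CPM with DMSO and 17.0 and 17.8 CPM with GSI. Its groups were apart, with a log2 fold change of 0.32 (SE 0.0920, adjusted p = 0.00922 in edgeR), but without DMSO replicate 2 it was 0.23 and no longer passed (adjusted p = 0.142). *Utp15* (chr13:98246845-98263041), of the same complex, had 19.7 and 20.3 CPM with DMSO and 23.69 and 24.04 CPM with GSI, a log2 fold change of 0.25 (SE 0.0817, adjusted p = 0.0176 in edgeR). It stayed between 0.23 and 0.27 when a library was left out, but passed only without GSI replicate 1; the adjusted p was 0.106 without DMSO replicate 1, 0.0519 without DMSO replicate 2 and 0.0542 without GSI replicate 2, in edgeR, and 0.0676 in DESeq2.

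*Bysl*, an adapter needed for maturation of the small subunit, had 11.4 CPM in both DMSO libraries and 12.4 and 13.2 CPM with GSI, a log2 fold change of 0.17 (SE 0.0944, adjusted p = 0.162 in edgeR). The remaining log2 fold changes were 0.16 for *Nop14* and 0.16 for *Rrp12*, 0.15 for *Rrp9*, 0.06 for *Wdr43*, -0.14 for *Utp20* and -0.16 for *Heatr1*, and none of these passed. The UTP complex of *Utp15* and *Wdr75* also holds *Wdr43* and *Heatr1*, and *Utp4* and *Nol11* from the wider lists described below. Of these genes 2 rose, *Utp15* and *Wdr75*, and 19.0% of all genes tested were higher. *Utp4* at -0.019 (adjusted p = 0.894, edgeR) and *Nol11* at 0.020 (adjusted p = 0.873, edgeR) did not pass. *Heatr1* had 34.1 and 36.4 CPM with DMSO and 30.9 and 32.5 CPM with GSI. For several of the remaining factors the size of the change depended on single libraries in edgeR, and 3 genes passed when a library was left out. *Rrp12* was at 0.33 and passed without DMSO replicate 2 (adjusted p = 0.0299), but was at 0.0096 without DMSO replicate 1 and at 0.06 without GSI replicate 2. *Nop14* was at 0.26 and passed without GSI replicate 2 (adjusted p = 0.0263), but was at 0.06 without GSI replicate 1. *Utp20* was at -0.26 and passed without GSI replicate 2 (adjusted p = 0.0422), but was at -0.032 without GSI replicate 1. *Rrp9* ranged from 0.033 without DMSO replicate 1 to 0.28 without DMSO replicate 2, and *Wdr43* from -0.030 without GSI replicate 1 to 0.15 without GSI replicate 2, and neither passed in any of the 4 fits on 3 libraries.

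The 10 large-subunit factors held both the gene that fell and 3 of the 6 that rose, and their median log2 fold change was 0.10. *Rrp1b* (chr17:32036100-32062865), a nucleolar protein that also associates with chromatin and a phosphatase, had 6.79 and 6.96 CPM with DMSO and 5.30 and 5.27 CPM with GSI. Both groups were tight and apart, with a log2 fold change of -0.38 (SE 0.116, adjusted p = 0.0123 in edgeR), which is a change of -23.2%. Without DMSO replicate 2 the value was -0.37 (adjusted p = 0.0647 in edgeR), and it did not pass in DESeq2 (adjusted p = 0.0902).

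*Grwd1* (chr7:45825223-45830944), a histone-binding WD-repeat protein that acts in assembly of the large subunit, had 6.74 and 7.74 CPM with DMSO and 8.48 and 9.72 CPM with GSI (log2 fold change 0.33, SE 0.114, adjusted p = 0.0273 in edgeR). It lost the call without DMSO replicate 1 (0.23, adjusted p = 0.206) and without GSI replicate 2 (0.22, adjusted p = 0.187), in edgeR, and in DESeq2 (adjusted p = 0.136). *Noc2l* (chr4:156236010-156247616), which takes part in export of pre-ribosomes and also inhibits histone acetylation, had 80.1 and 86.6 CPM with DMSO and 107.8 and 98.5 CPM with GSI. That is a log2 fold change of 0.31 (SE 0.0741, adjusted p = 0.00237 in edgeR), the smallest adjusted p of the 38 genes, and the call held whichever of the 4 libraries was left out, and in DESeq2. *Noc2l* shares 598 exon bases with *Samd11* on the other strand, which had 36 and 56 counts with DMSO and 7 and 12 with GSI; the part of this overlap in the result was not tested.

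The third large-subunit gene that rose, *Nop16* (chr13:54584185-54590090), had 8.65 and 9.41 CPM with DMSO and 10.96 and 10.91 CPM with GSI. It was the least stable call, with a log2 fold change of 0.27 (SE 0.101, adjusted p = 0.0351 in edgeR) that ranged from 0.22 without DMSO replicate 1 to 0.34 without DMSO replicate 2 and passed in 0 of the 4 fits on 3 libraries, with adjusted p from 0.0517 to 0.222 in edgeR, nor in DESeq2 (adjusted p = 0.162). Without GSI replicate 1 it was 0.27 and without GSI replicate 2 it was 0.28. The PeBoW complex of *Pes1*, *Bop1* and *Wdr12*, which is needed for processing of the large-subunit RNAs, had log2 fold changes of -0.014, -0.012 and -0.037. *Nop2*, an RNA methyltransferase whose E-box is shown above, was at 0.16, *Rrs1*, which helps to load the 5S particle, was at 0.16 and *Noc3l* was at 0.03, and none of these 6 passed.

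Of the 5 abundant nucleolar proteins and regulators, 0 passed in edgeR, with 1 lower and 1 higher at an unadjusted p under 0.05, and 0 passed in DESeq2. *Gnl3*, nucleostemin, a GTP-binding protein of proliferating cells, had 26.4 and 29.4 CPM with DMSO and 32.3 and 31.2 CPM with GSI (log2 fold change 0.19, SE 0.0807, adjusted p = 0.0716 in edgeR). *Ddx21*, an RNA helicase that couples Pol I and Pol II transcription, had 103.8 and 105.8 CPM with DMSO and 96.98 and 90.25 CPM with GSI (log2 fold change -0.16, SE 0.0708, adjusted p = 0.0720 in edgeR). The groups of both genes were apart, in opposite directions, and each passed when 1 library was left out: *Gnl3* without DMSO replicate 2 (0.26, adjusted p = 0.0475) and *Ddx21* without GSI replicate 1 (-0.22, adjusted p = 0.0392), in edgeR. Without another library each was nearer 0, *Gnl3* at 0.11 without DMSO replicate 1 (adjusted p = 0.447, edgeR) and *Ddx21* at -0.11 without GSI replicate 2 (adjusted p = 0.337, edgeR).

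*Mybbp1a*, a nucleolar binding partner of several transcription factors, had 93.3 and 99.0 CPM with DMSO and 85.04 and 88.65 CPM with GSI, also with the groups apart (log2 fold change -0.15, SE 0.0709, adjusted p = 0.105 in edgeR). The 2 most abundant genes per kb of the whole set, *Npm1* and *Ncl*, were at 0.024 and -0.0057. For *Ncl*, the GSI libraries at 346.1 and 306.1 CPM lay on both sides of the DMSO libraries at 327.1 and 327.7 CPM. The same held for *Npm1*, at 313.1 and 261.1 CPM with GSI against 279.9 and 285.0 CPM with DMSO.

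Library by library, both GSI values lay above both DMSO values for 17 genes and below them for 7, and the groups overlapped for 14. Over all tested genes, 35.8% lay wholly above and 34.8% wholly below. The median absolute log2 fold change of the 38 was 0.14, and their median absolute log2 difference between replicates was 0.0653 for DMSO and 0.0738 for GSI. The same medians over all tested genes were not computed. Among the 38, DMSO replicate 2 was above DMSO replicate 1 for 31 genes, and GSI replicate 1 was above GSI replicate 2 for 26. These counts were not made over all tested genes, so an offset of whole libraries and a trait of these genes cannot be told apart.

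**Figure D3:**
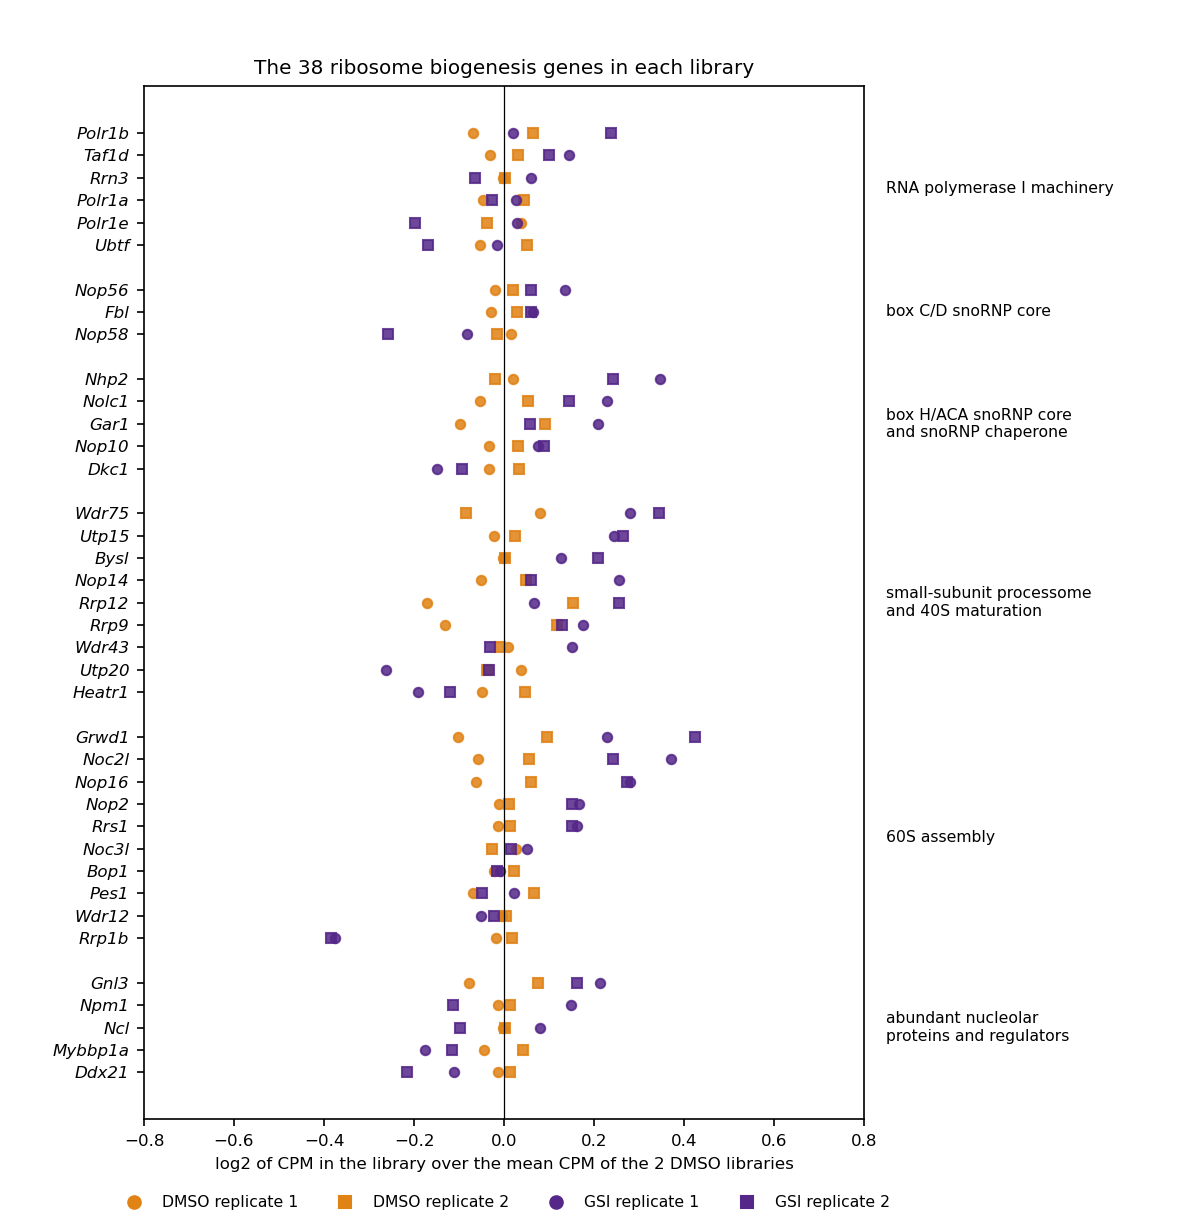
Level of each gene in each library as log2 of its CPM over the mean CPM of both DMSO libraries, grouped by role, with circles for replicate 1 and squares for replicate 2. The GSI symbols lie to the right of both DMSO symbols for 17 genes, to the left for 7 and among them for 14.

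The wider pathway was described with 100 further genes for ribosome biogenesis, of which 99 were found and tested. With GSI, 18 of the 99 (18.2%) were higher and 5 (5.05%) lower, against 19.0% and 21.9% of all tested genes, and their median log2 fold change was 0.07. DESeq2 called 7 higher and 3 lower. The edgeR count fell to 5 higher and 3 lower without DMSO replicate 1, to 10 higher without GSI replicate 1, to 2 lower without DMSO replicate 2 and to 3 lower without GSI replicate 2. Of 9 other Pol I genes, *Taf1c*, a subunit of the selectivity factor, rose by 0.40 on the log2 scale (5.35 and 5.98 CPM with DMSO, 6.99 and 8.04 CPM with GSI, adjusted p = 0.0104 in edgeR). *Polr1g*, a Pol I subunit, fell by 0.31 (6.90 and 6.98 CPM with DMSO, 5.98 and 5.22 CPM with GSI, adjusted p = 0.0416 in edgeR). DESeq2 called neither, *Taf1c* was not called without DMSO replicate 1 or GSI replicate 2, and *Polr1g* passed in 1 of the 4 fits on 3 libraries, that without GSI replicate 1. Over both Pol I lists, 1 gene thus rose and 1 fell.

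Among 42 other small-subunit factors, 11 (26.2%) rose and 1 fell, with a median log2 fold change of 0.07. DESeq2 called 3 higher and 1 lower, and without DMSO replicate 1 the count of higher genes in edgeR was 0, with 6 without DMSO replicate 2, 4 (and 3 lower) without GSI replicate 1 and 8 without GSI replicate 2. The largest rises were those of *Nob1*, the endonuclease that completes the small-subunit RNA, at 0.30, of *Imp3*, a protein of the U3 snoRNP, at 0.30, and of *Utp23* at 0.28, of which DESeq2 called *Imp3* alone. The gene that fell was *Wdr3*, at -0.34, from 32.5 and 31.6 CPM with DMSO to 24.9 and 25.8 CPM with GSI (adjusted p = 0.00162 in edgeR). Among 48 other large-subunit factors, 6 (12.5%) rose and 3 fell, with a median of 0.11, and DESeq2 called 4 higher and 2 lower. In edgeR 1 was lower without DMSO replicate 2, and 2 were lower without DMSO replicate 1 or without GSI replicate 2. *Rsl24d1*, a placeholder protein on pre-60S particles, rose by 0.42, from 24.2 and 26.0 CPM with DMSO to 34.0 and 33.3 CPM with GSI, and had an adjusted p of 2.41e-04 in edgeR. The helicase *Ddx56* rose by 0.39 and *Mrto4*, which helps to build the ribosomal stalk, by 0.34. The 3 that fell were *Mdn1*, the large AAA ATPase that strips factors from pre-60S particles, at -0.34, *Tex10*, of a complex that works with it, at -0.26, and *Zfp622* at -0.25; *Tex10* was not called in DESeq2 (adjusted p = 0.066).

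Outside biogenesis itself, 10 of 78 cytosolic ribosomal proteins were higher and 0 lower in edgeR, with 16 higher and 0 lower at an unadjusted p under 0.05 and 9 higher and 0 lower in DESeq2. The share higher in edgeR was 12.8%, below the 19.0% of all tested genes, and the median log2 fold change of these 78 genes was 0.08. The count of higher genes was 4 without DMSO replicate 1 and 16, with 2 lower, without GSI replicate 1. Of 11 subunits of RNA polymerase III, which makes the 5S RNA, 1 was higher and 0 lower in edgeR, with 3 higher and 0 lower at an unadjusted p under 0.05 and 1 higher and 0 lower in DESeq2, at a median of 0.13. Without GSI replicate 2 it was 3 higher, and without GSI replicate 1 it was 1 higher and 1 lower. Of 5 subunits shared by the 3 polymerases, 3 were higher and 0 lower (edgeR; also 3 and 0 at an unadjusted p under 0.05; 2 and 0 in DESeq2), at a median of 0.25. The count of higher genes was 1 without DMSO replicate 1, 2 without DMSO replicate 2 or GSI replicate 1, and 4 without GSI replicate 2. Of 7 subunits of RNA polymerase II, 2 were higher and 2 lower, at a median of 0.05, with 1 lower without DMSO replicate 1.

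The snoRNAs that the box C/D and box H/ACA proteins bind are cut from introns of host genes. Of the 38 genes, 7 have annotated snoRNA genes inside them (18.4%, against 1.998% of 13165 tested genes found in the annotation), 27 snoRNA genes in all: 8 in *Taf1d*, 5 in *Nop56*, 4 in *Nop58*, 3 each in *Ncl*, *Wdr43* and *Gnl3*, and 1 in *Dkc1*. None of these 7 hosts passed the test. The 27 snoRNA rows together held 790 counts over the 4 libraries, too few for a statement in a library made from mRNA. Of 10 tested long non-coding host RNAs, 5 rose and 1 fell, with a median log2 fold change of 0.28, whereas DESeq2 called 2 higher, *Snhg8* and *Snhg6*, and 0 lower. *Snhg8* rose most, by 0.64, from 18.3 and 20.9 CPM with DMSO to 33.1 and 28.3 CPM with GSI (adjusted p = 1.24e-05 in edgeR). *Snhg6* at 0.37, *Snhg3* at 0.36, *Snhg1* at 0.32 and *Gas5* at 0.23 also rose in edgeR, and *Snhg17* fell there, at -0.55, from 3.23 and 4.94 CPM with DMSO to 2.44 and 3.20 CPM with GSI. *Snhg17* was not called without DMSO replicate 2 or GSI replicate 1, and without DMSO replicate 1 the count of host RNAs that were higher was 2.

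*Myc*, the regulator named above, fell. It had 44.55 and 50.02 CPM with DMSO and 18.2 and 18.4 CPM with GSI, a log2 fold change of -1.37 (SE 0.0824, adjusted p = 1.09e-10 in edgeR), or a change of -61.3%. In the same network *Mxd3* at -2.21, *Mxi1* at -1.25 and *Mxd4* at -0.86, whose proteins compete with MYC for MAX, also fell, while *Max* at 0.26 and *Mlx* at 0.20 rose in edgeR; *Mlx* was not called in DESeq2 (adjusted p = 0.122), and of the 4 fits on 3 libraries *Max* passed in 2, without DMSO replicate 1 and without GSI replicate 2, and *Mlx* in 1, without GSI replicate 2. *Myc* thus lay outside the range of all 38 ribosome biogenesis genes, which ended at -0.38. Genes of the cell cycle differed as well: of 20 S phase genes 17 were lower and 0 higher in edgeR (17 and 0 at an unadjusted p under 0.05 and in DESeq2), with a median of -0.77, and of 20 G2/M genes 19 were lower and 1 higher, with a median of -1.25. What part cell cycle phase or *Myc* had in the values of the 38 genes was not tested.

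**Figure D4:**
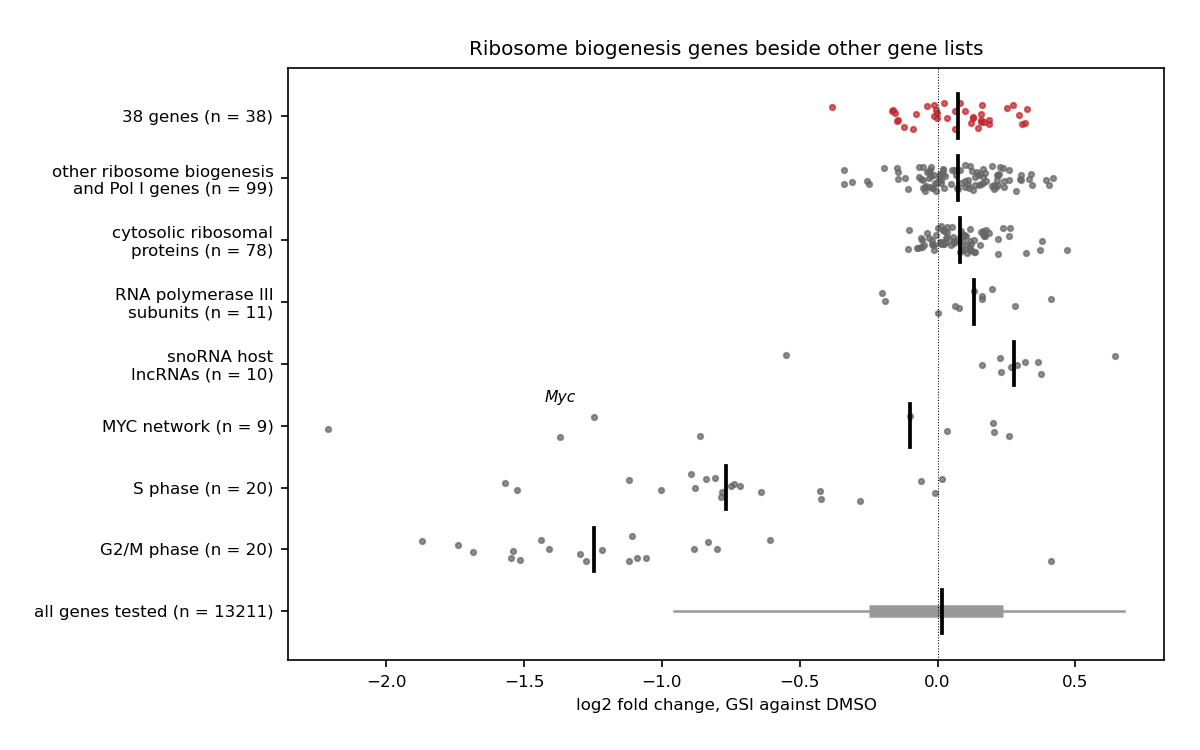
Log2 fold change of GSI against DMSO for each tested gene of the 38 and of 7 other lists (points), with the median of each list as a black bar; for all 13211 genes tested the thick bar joins the quartiles and the thin line the 5th and 95th percentiles. The 38 genes, the other ribosome biogenesis genes and the ribosomal proteins have medians of 0.07, 0.07 and 0.08, whereas *Myc* at -1.37 and the S phase and G2/M lists, with medians of -0.77 and -1.25, lie far to the left.

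Some counts carry limits of position and sequence. Exons of 18 of the 38 genes overlap exons on the opposite strand, and neither the labels nor the methods give the strand setting of the counting. Among called genes of the wider lists, *Wdr3* shares 847 exon bases with the other strand, *Taf1c* 584, *Utp23* 345, *Tex10* 226 and *Polr1g* 106. Those genes were therefore not in the test below. Some partners with few counts were lower in the GSI libraries, such as *Gm15522* across from *Nop14*, with 9 and 10 counts with DMSO and 1 and 0 with GSI. When only genes without such exons were tested, which left 20 of the 38, 3 were higher and 0 lower. Of all 8969 genes in that test, 18.56% were higher and 21.27% lower. The coding sequences of 13 of the 38 genes matched another annotated transcript at 90% identity or more over at least 200 bases. For 12 of them the matching genes held at most 0.743% of the gene's own count, and the exception was *Fbl*, as noted above, one of whose matches lies in the longer gene *Tulp4*.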

How the data were processed

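The authors trimmed reads with Trimmomatic, aligned them with STAR (2.5.0a per the submitters' processing notes, which list builds mm9 and mm10; the methods name mm10) and counted reads per gene with HTSeq; its mode, strand setting and annotation version are not given in the sources used here. The deposited values are raw counts per gene without normalization. The 16 columns were taken by title, 4 per replicate, and summed to 4 libraries; 0 columns were left unused.

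Counts were tested with edgeR 4.0.16 in R 4.3.3 (filterByExpr, TMM, glmQLFit and glmQLFTest, group as the only factor, Benjamini-Hochberg adjustment over 13211 genes). A call is an FDR under 0.05. The SE was obtained as the absolute log2 fold change over the root of F, and the 95% interval uses the test's degrees of freedom. Scripts were tested on simulated data. Positions came from GENCODE M21 (46488 of 47069 gene IDs found), promoters from RefSeq (GRCm38.p6), and copies from blastn of coding sequences.

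As alternatives, DESeq2 1.42.0 was used, size factors were set by RLE or omitted, the filter was dropped or raised to 10 counts in every library, the replicate number was entered as a block, and each library was left out in turn. Testing only genes without exons on the other strand was added after the data were seen. The 38 genes and all lists were chosen with earlier results of these data known. By the rule for named genes, values in all libraries are given for the Pol I machinery and, in each other role, for the 3 largest absolute fold changes, and the other members by fold change. The wider biogenesis lists are named by the 3 largest called changes per direction, the MYC network and host RNAs by *Myc* and the called genes, with library values for some. Library values of *Nop16*, *Heatr1*, *Ncl* and *Npm1*, and the genes *Samd11*, *Gm15522*, *Tulp4*, *Utp4* and *Nol11*, were added after their values were seen.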

Additional observations from a re-analysis of the deposited data

How the results depend on the processing

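The counts of the 38 genes (6 higher, 1 lower) stayed as they were, and the median log2 fold change of 0.07 stayed within 0.07 to 0.08, with RLE or no normalization factors, with no filter and with at least 10 counts in every library. With no filter, 12.21% of all 21723 genes tested were higher and 13.6% lower. In the other settings just named, 18.24% to 19.53% of all genes tested were higher and 22.26% to 22.49% lower. DESeq2 called 3 higher and 0 lower of the 38 and, of the 99 other ribosome biogenesis genes, 7 higher and 3 lower in place of 18 and 5. Among genes without exons on the other strand, 3 higher and 0 lower of 20 were called, and 11 higher and 2 lower of the others. Fewer genes were tested there, 8969 in all, of which 18.56% were higher and 21.27% lower. Without 1 library, the 38 genes gave 3 to 5 higher and 0 to 3 lower, the others 5 to 15 higher and 2 to 7 lower, and the median ranged from 0.04 to 0.10; a lone library is then assumed to vary like the other group. The cause of these shifts was not tested. None of the 7 called genes changed sign under these, but *Rrp1b*, *Nhp2*, *Noc2l* and *Grwd1* have exons on the other strand and were not in that test.

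The groups share replicate numbers, but the labels tie no number to a culture, and with 2 pairs the numbers name libraries only. The differences between replicates 1 and 2 in the 2 groups correlated at 0.15 over 13211 genes, and at 0.25 over the 7581 genes averaging at least 10 CPM. With the replicate block, 8 of the 38 genes were higher and 3 lower, and 26 and 6 of the others, while over all genes the calls went from 5392 to 6444. Of all genes tested with the block, 23.69% were higher and 25.09% lower. Genes that gained a call with the block were *Nolc1* (adjusted p = 0.0263) and *Gnl3* (0.0246), as higher, and *Ddx21* (0.0305) and *Nop58* (0.0381), as lower, in edgeR. The SE was 0.123 for *Gar1*, with the smallest count of 226, and 0.0708 for *Ddx21*; counting error and replicate spread both enter it.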
